A study of Homo sapiens with 6 samples.

Results

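Tight junction genes and EPCAM were examined as a set of 9 listed genes, EPCAM, CLDN1, CLDN3, CLDN4, CLDN7, OCLN, F11R, CGN and TJP1, taken by symbol from a table of 15024 genes. All 9 were in the table and all 9 passed the filter on low values, which kept the 14343 genes that reached a value of 10 in 3 or more libraries. RNA came from MDA-MB-231, a triple-negative breast cancer line that grows largely as mesenchymal cells. Every library came from cells labelled sgNT, taken here as the design's wild type for MLL3, grown in DMEM with 10% serum and exposed to 10 µM forskolin, an activator of adenylyl cyclase and so of protein kinase A, for 14 days. The CD104high group (CD44+CD104high, titled E/M) held 3 libraries and the CD104low group (CD44+CD104-/low, titled M) held 3, and CD104 is integrin beta 4, the product of ITGB4. Both groups are sorts of a single cell line, with no forskolin-free library, and the MLL3-mutant cells that the design mentions were not analysed here.

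Tight junctions seal the space between neighbouring epithelial cells. Claudins form the sealing strands, occludin (OCLN) and the immunoglobulin protein JAM-A (F11R) lie in the same membrane domain, and the plaque proteins ZO-1 (TJP1) and cingulin (CGN) tie the strands to the actin cytoskeleton. EPCAM, an adhesion glycoprotein of epithelial cells, binds claudin-7 in the membrane, and loss of claudins, occludin and EPCAM is a usual feature of the epithelial-mesenchymal transition.

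The libraries held between 52088604 and 56958065 gene reads. The deposited values are gene read counts divided by 1 size factor per library and are called normalised read counts here. ITGB4, the gene behind the sort, averaged 17659 ± 1766 normalised reads in CD104high libraries and 3079 ± 743 in CD104low libraries (SD, n = 3 each), in the direction of the labels. VIM and CD44, markers of the line, lay between 20735 and 28530 normalised reads in every library. The hormone receptor genes ESR1 and PGR had no entry under these symbols among the 15024 genes, so their levels could not be analysed here.

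The 9 genes did not move together between the sorted groups. F11R rose and OCLN fell in the CD104high cells, by 1.75-fold and 1.66-fold of the group means. CLDN7 and CLDN1 were 1.39-fold and 1.35-fold higher without passing the test, CLDN3 was 1.22-fold lower without passing it, and EPCAM, CLDN4, CGN and TJP1 had overlapping groups. At an adjusted p under 0.05 in limma, a linear model with a shared estimate of the spread, 1 of the 9 genes was higher and 1 lower, against 12.1% higher and 11.3% lower among all genes tested. The median log2 difference of the 9 genes was −0.0099, and that of all genes tested 0.0089. Called in either direction were thus 2 of 9, near the 23.4% of all genes. The groups did not overlap for 5 of the 9 genes, against 41.2% of all genes tested. In 3 of these the CD104high libraries were higher (19.9% of all genes) and in 2 lower (21.3%). Genes without overlap must go 1 way in all 3 same-numbered pairs, so the pairs add nothing for these 5. EPCAM, CLDN4, CGN and TJP1 each went both ways among the pairs, while 61.3% of all genes tested went 1 way in all 3.

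**Figure D1:**
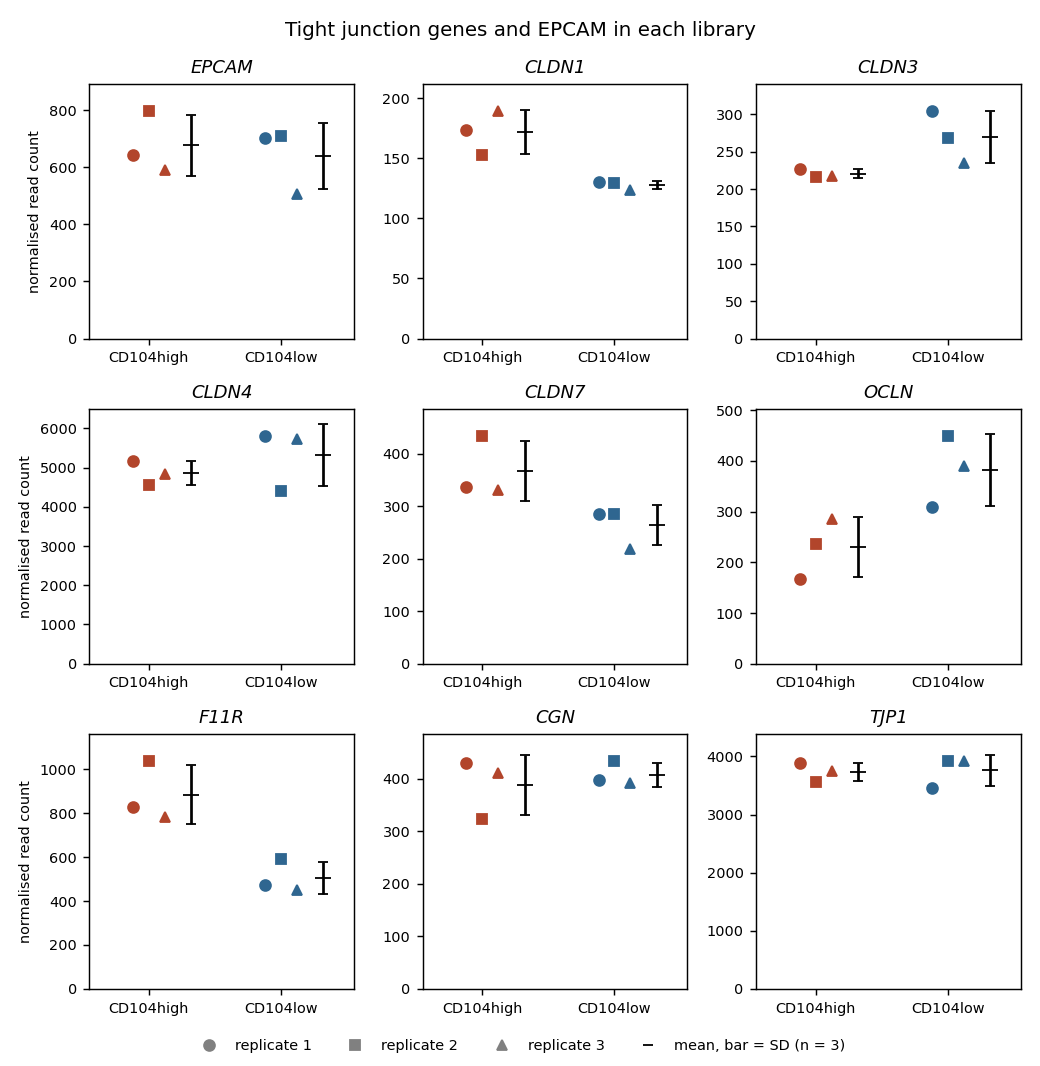
Normalised read count (linear axis from 0) of the 9 genes in each library, with CD104high left of CD104low, a symbol for each replicate number and the mean with its SD (n = 3) beside the points. F11R, CLDN7 and CLDN1 lie higher in every CD104high library than in any CD104low library, OCLN and CLDN3 lie lower, and the other 4 genes overlap.

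Among the claudins, CLDN7 (ENSG00000181885.18, GRCh38 chromosome 17, 7259903 to 7263983, minus strand) encodes the claudin that binds EPCAM. It had 337, 434 and 331 normalised reads in CD104high libraries 1 to 3, and 286, 286 and 219 in CD104low libraries 1 to 3. Every CD104high library lay above every CD104low library. The log2 difference was 0.48 (SE 0.17, 95% interval 0.11 to 0.85, limma adjusted p = 0.0639), short of the threshold. Libraries with the same replicate number deviated together, and with that number as a block the adjusted p of limma was 0.0186. With the block 2 of the 9 genes were higher, against 17.4% of all genes tested, and 1 lower, against 15.4% (either way 32.8%). DESeq2 on recovered reads also called CLDN7 (adjusted p = 0.0321), but the authors' deposited table gives it an adjusted p of 0.071, short of the threshold. In GENCODE 29, CLDN7 shares exon sequence with the protein-coding gene AC003688.1 on the same strand, and reads in the shared exons cannot be told apart here. ELP5, on the other strand, overlaps CLDN7 only from base 7259903 to 7259940 and has values of its own in the table.

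CLDN1 (ENSG00000163347.6, chromosome 3, 190305701 to 190322475, minus strand), a barrier claudin of many epithelia, was a low gene. It had 174, 153 and 189 normalised reads in CD104high libraries, against 130, 129 and 124 in CD104low libraries. The groups did not overlap, and the CD104low libraries lay close to each other (SD 3.45). CLDN1 differed by 0.42 on the log2 scale (SE 0.17, 95% interval 0.050 to 0.80, limma adjusted p = 0.0957), and the adjusted p was 0.0391 in limma without the mean-variance trend.

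CLDN3 and CLDN4 are neighbours on chromosome 7 and encode sealing claudins that are also receptors of a clostridial enterotoxin. CLDN3 (ENSG00000165215.6, 73768997 to 73770270, minus strand) had 227, 216 and 218 normalised reads in CD104high libraries, against 305, 269 and 235 in CD104low libraries. The CD104high libraries were close together and all lower, with a log2 difference of −0.28 (SE 0.15, 95% interval −0.61 to 0.053, limma adjusted p = 0.203). CLDN4 (ENSG00000189143.9, 73799542 to 73832693, plus strand) had 5168, 4561 and 4847 in CD104high libraries, against 5802, 4396 and 5735 in CD104low libraries. Its groups overlapped, since the lowest library of all was CD104low replicate 2. CLDN4 had a log2 difference of −0.12 (95% interval −0.36 to 0.12, limma adjusted p = 0.459). The annotated spans of the 2 genes lie 29271 bases apart.

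CLDN4 took most of the reads of these 4 claudins, which are not divided by gene length here. CLDN4 has 4702 bases of annotated exon, against 3663 for CLDN1, 2492 for CLDN7 and 1274 for CLDN3. Its share of their summed value was 86.4% ± 1.27 in CD104high and 88.8% ± 2.15 in CD104low libraries (SD, n = 3 each; exact two-sided permutation test, p = 0.3). CLDN7 took 5.70%, 8.09% and 5.93% in CD104high libraries, against 4.39%, 5.62% and 3.48% in CD104low libraries (exact permutation p = 0.1). CLDN1 took 3.06% ± 0.288 and 2.16% ± 0.326 (n = 3 each, exact permutation p = 0.1). The value of 0.1 is the smallest that this test can give with 3 against 3 libraries, and after adjustment over 6 within-library comparisons both p-values were 0.2. The shares of CLDN7 and CLDN1 were higher in each CD104high library than in any CD104low library, and no test with a lower limit was run on them.

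EPCAM (ENSG00000119888.11, chromosome 2, 47345158 to 47387601, plus strand) overlapped between the groups. It had 643, 798 and 591 normalised reads in CD104high libraries 1 to 3, against 701, 711 and 506 in CD104low libraries 1 to 3. The libraries numbered 3 were the lowest of both groups. The log2 difference was 0.088 (SE 0.16, limma adjusted p = 0.731) with a 95% interval of −0.27 to 0.45.

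Set against CLDN7 in the same library, EPCAM gave close values within each group. The log2 ratio of EPCAM over CLDN7 was 0.93, 0.88 and 0.83 in CD104high libraries, against 1.29, 1.31 and 1.20 in CD104low libraries. The groups stood apart by −0.39, with SDs of 0.049 and 0.059, and the exact two-sided permutation p was 0.1 (0.2 adjusted), the smallest this test can give here. CLDN7 was therefore higher relative to EPCAM in each CD104high library. The ratio does not depend on the scale of a library.

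**Figure D2:**
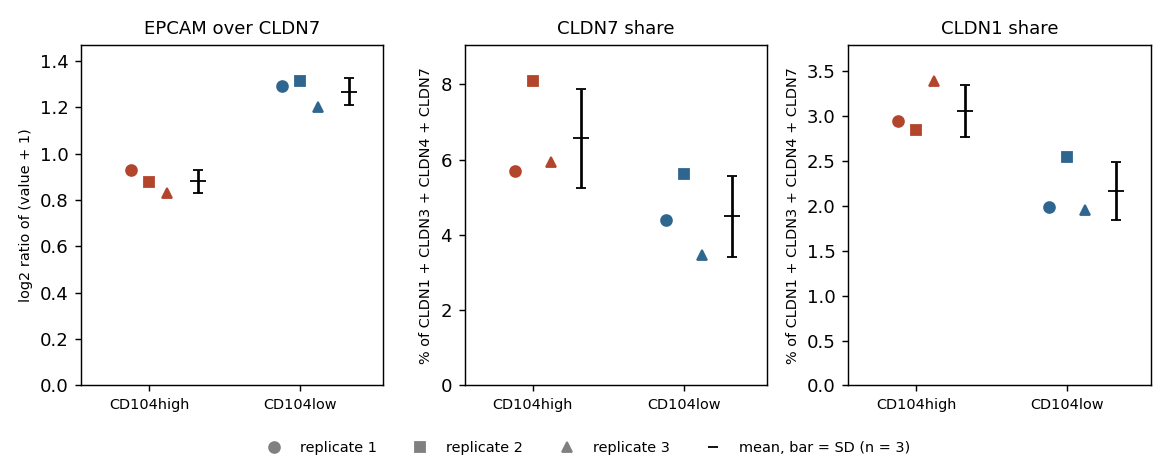
Within-library measures of each library, CD104high left of CD104low, with the mean and SD (n = 3): the log2 ratio of EPCAM over CLDN7 (left), and the shares of CLDN7 (middle) and CLDN1 (right) in the summed value of CLDN1, CLDN3, CLDN4 and CLDN7. The ratio lies between 0.83 and 0.93 in CD104high and between 1.20 and 1.31 in CD104low libraries, and both shares are higher in each CD104high library.

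F11R and OCLN, which encode tight junction membrane proteins that are not claudins, moved apart. F11R (ENSG00000158769.18, chromosome 1, 160995211 to 161021348, minus strand) encodes JAM-A, which binds its like on the next cell and recruits polarity proteins. It had 831, 1037 and 785 normalised reads in CD104high libraries, against 473, 591 and 452 in CD104low libraries. The groups were well apart, and replicate 2 was the highest of both. The log2 difference was 0.81 (SE 0.14, 95% interval 0.49 to 1.13, limma adjusted p = 0.00384), higher in 3 of 3 numbered pairs, and it kept its call in all 18 alternatives run. The authors' deposited table gives an adjusted p of 0.00121 for F11R. Another protein-coding gene, AL591806.3, shares exons with F11R on the same strand, and reads of both cannot be told apart.

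OCLN (ENSG00000197822.11, chromosome 5, 69492292 to 69558104, plus strand) encodes occludin, a protein with 4 membrane passes that helps set the leak pathway of the junction. It had 168, 236 and 286 normalised reads in CD104high libraries, against 309, 449 and 389 in CD104low libraries. All CD104high libraries were lower, but the highest of them and the lowest CD104low library were close. The log2 difference was −0.75 (SE 0.21, 95% interval −1.22 to −0.27, limma adjusted p = 0.0305, 0.00307 with the replicate block), and the authors' deposited table gives an adjusted p of 0.0442. The call of limma ended without CD104high replicate 1 (−0.54, adjusted p = 0.11), CD104high replicate 2 (−0.78, 0.0717), CD104low replicate 2 (−0.62, 0.102) or CD104low replicate 3 (−0.73, 0.0525), and in limma without the trend (adjusted p = 0.0816). The pseudogene OCLNP1 lies on the same chromosome, and how reads that fit both were counted is not given in the sources used here.

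F11R and OCLN also differed in how many reads they had relative to each other. The ratio of their normalised reads was 4.95, 4.39 and 2.74 in CD104high libraries, against 1.53, 1.32 and 1.16 in CD104low libraries. This ratio was chosen after the values were seen and was not tested.

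The plaque genes overlapped between the groups. TJP1 (ENSG00000104067.16, chromosome 15, 29699367 to 29968865, minus strand), which encodes the scaffold ZO-1, had 3880, 3564 and 3744 normalised reads in CD104high libraries, against 3448, 3916 and 3914 in CD104low libraries. Its log2 difference of −0.0099 had the narrowest 95% interval of the 9 genes, −0.18 to 0.16 (limma adjusted p = 0.941). CGN (ENSG00000143375.15, chromosome 1, 151510510 to 151538692, plus strand), which encodes cingulin, had 430, 324 and 411 in CD104high libraries, against 397, 433 and 392 in CD104low libraries. CD104high replicate 2 was the lowest of the 6. CGN had a log2 difference of −0.080 (95% interval −0.39 to 0.23, limma adjusted p = 0.72).

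**Figure D3:**
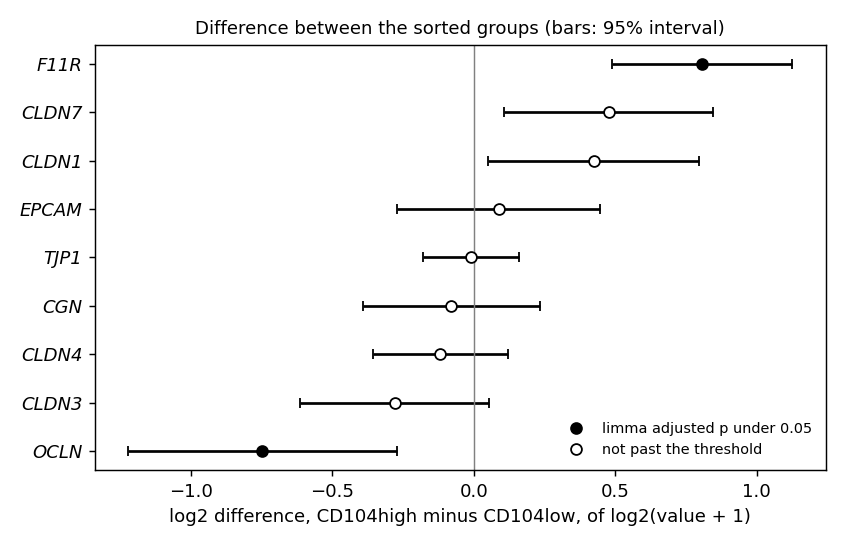
Log2 difference of log2(value + 1), CD104high minus CD104low, for each of the 9 genes, with its 95% interval from limma. Filled points passed an adjusted p of 0.05: F11R at 0.81 and OCLN at −0.75, with the other 7 genes between −0.28 and 0.48.

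Levels were compared between genes per kilobase of annotated exon in GENCODE 29. In CD104high libraries the order was CLDN4 (1033 ± 64.6 normalised reads per kilobase), TJP1 (331 ± 14.0), EPCAM (269 ± 42.8), F11R (175 ± 26.5), CLDN3 (173 ± 4.57), CLDN7 (147 ± 23.1), CGN (58.6 ± 8.55), CLDN1 (47.0 ± 5.0) and OCLN (34.0 ± 8.77). TJP1 and EPCAM overlapped there, as did F11R, CLDN3 and CLDN7 as neighbours, and CGN, CLDN1 and OCLN. In CD104low libraries CLDN4 (1130 ± 169), TJP1 (334 ± 23.9) and EPCAM (254 ± 46.0) led again, and CLDN3 (211 ± 27.4) stood next, overlapping with EPCAM. F11R (99.7 ± 14.8) overlapped with CLDN7 (106 ± 15.4) there, and OCLN (56.5 ± 10.4) stood above CLDN1 (34.8 ± 0.942) with no overlap. The exon union counts every annotated exon, which may lower the level per kilobase of genes with long rare exons. Per kilobase of the longest principal transcript, CLDN7 (238 ± 37.3) stood above F11R (183 ± 27.8) in CD104high libraries.

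Promoters were looked up to show what lies at the starts of the genes that moved or lead. RefSeq windows on GRCh38.p14, from 250 bases before to 50 after a start, were matched by symbol for 7 of the 9 genes, in 12 windows. EPCAM and F11R had none in the table. The motifs searched on both strands were CAGGTG (the E-box read by SNAI and ZEB repressors), TGANTCA (AP-1), TGACGTCA (the CRE read by CREB, a target of protein kinase A) and AACCGGTT (grainyhead-like factors). Windows are shown for CLDN7, which passed with the replicate block and holds most E-box matches, for OCLN, which fell, and for CLDN4, the claudin with the highest level. Capitals mark motif matches.
CLDN7, chr17:7262429-7262728, minus strand: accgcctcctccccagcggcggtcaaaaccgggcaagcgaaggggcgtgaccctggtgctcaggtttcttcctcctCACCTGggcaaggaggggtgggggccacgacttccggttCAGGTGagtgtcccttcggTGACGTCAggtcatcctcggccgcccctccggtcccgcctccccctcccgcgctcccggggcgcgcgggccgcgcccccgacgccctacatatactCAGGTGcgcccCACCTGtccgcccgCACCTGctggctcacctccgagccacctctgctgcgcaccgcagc
OCLN, chr5:69492540-69492839, plus strand: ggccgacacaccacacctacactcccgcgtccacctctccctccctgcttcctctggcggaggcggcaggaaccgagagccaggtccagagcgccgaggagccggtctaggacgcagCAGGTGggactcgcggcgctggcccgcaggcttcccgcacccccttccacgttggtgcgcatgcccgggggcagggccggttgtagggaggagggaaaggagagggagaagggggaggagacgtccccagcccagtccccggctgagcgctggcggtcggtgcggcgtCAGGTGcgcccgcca
CLDN4, chr7:73830746-73831045, plus strand: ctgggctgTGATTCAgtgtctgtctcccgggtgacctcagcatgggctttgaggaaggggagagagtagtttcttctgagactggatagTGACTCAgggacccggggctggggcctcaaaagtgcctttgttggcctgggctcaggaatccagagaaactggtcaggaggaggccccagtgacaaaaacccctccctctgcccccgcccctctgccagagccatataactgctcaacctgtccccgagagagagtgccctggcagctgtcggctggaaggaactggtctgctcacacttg
The CLDN7 window shown holds 5 E-box matches and 1 CRE match, the OCLN window shown 2 E-box matches, and the CLDN4 window 2 AP-1 matches and no E-box. Another CLDN7 window, chr17:7263164-7263463, held no match to any of the motifs. E-box matches were found in windows of 4 of the 7 genes (CLDN3, CLDN7, OCLN and TJP1), in 5 of 12 windows, against 20.6% of all 35116 windows in the table. The CRE stood in 1.85% and AP-1 in 7.71% of all windows, and no window of these genes held the grainyhead-like motif, which 0.134% of all windows hold. In CD104high cells CLDN7 was higher, short of the threshold in the unpaired test (limma adjusted p = 0.0639), and OCLN was lower. Whether the E-box matches in their windows bear on either gene was not tested. A match describes the letters and no binding was measured.

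The rest of the tight junction was read from 5 lists with 90 tested genes, and paired values are means ± SD of normalised reads, CD104high against CD104low (n = 3 each). Among other strand and adhesion proteins, 4 of 15 tested genes rose, 1 fell and 10 did not pass, with a median log2 difference of 0.24. Among all genes tested 12.1% rose and 11.3% fell, with a median of 0.0089. With the replicate block 6 of the list were higher and 2 lower, against 17.4% and 15.4% of all genes. MARVELD1, a relative of occludin by its MARVEL domain, rose 1.37-fold (5041 ± 71.1 against 3685 ± 170, limma adjusted p = 0.00152). CLDN2, which forms cation pores, rose 1.99-fold (215 ± 52.6 against 108 ± 13.3, adjusted p = 0.0111), a call that ended without CD104high replicate 1 (0.0582). CLDND1, a claudin-domain gene, rose 1.31-fold (adjusted p = 0.00463). JAM3, a relative of F11R, had 57.9 ± 18.5 in CD104high and 113.7 ± 15.9 in CD104low libraries and fell 1.96-fold (adjusted p = 0.024). That call was lost when CD104high replicate 2 (0.0664) or 3 (0.0653) or CD104low replicate 1 (0.0531) or 3 (0.0572) was left out. CLDN12 and ESAM, the most abundant genes that did not pass, had log2 differences of 0.024 and −0.40 (adjusted p = 0.886 and 0.26). The other 16 listed symbols of this kind had no entry in the table and could not be analysed here, and CLDN6 was under the filter.

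Among plaque and polarity genes, 4 of 26 tested rose, 1 fell and 21 did not pass (median 0.061; 7 higher and 2 lower with the replicate block). These 5 calls of 26 are no larger a share than the 23.4% of all genes called either way, and 7 and 2 with the block compare with 17.4% and 15.4% of all genes. LLGL2, a polarity protein of the basolateral side, rose 1.95-fold (5046 ± 778 against 2584 ± 491, limma adjusted p = 0.00167). PARD6B, a partner of atypical protein kinase C, rose 1.37-fold (adjusted p = 0.00549), and PATJ, a scaffold of the Crumbs complex, 1.33-fold (0.0202). The call for PATJ ended without CD104high replicate 1 (0.0842), CD104high replicate 2 (0.069) or CD104low replicate 3 (0.0513). SCRIB, a basolateral scaffold, fell by 0.34 on the log2 scale (SE 0.06, adjusted p = 0.00389). AMOTL2 and DLG1, abundant genes of the list, had log2 differences of −0.063 and 0.075 and did not pass.

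Among genes of junction signalling and traffic, 2 of 19 rose, 1 fell and 16 did not pass (median −0.0085; 4 higher and 1 lower with the replicate block). The 3 calls of 19 are a smaller share than the 23.4% of all genes called either way, and with the block 32.8% of all genes were called. MYLK, the myosin light chain kinase that tightens the junctional actin ring, rose 1.82-fold (9569 ± 1652 against 5257 ± 1680, limma adjusted p = 0.00902). RAB13, a GTPase that moves junction proteins, rose 1.37-fold (adjusted p = 0.0169). CDK4, listed as a partner of the junctional factor ZONAB and better known for cell cycle entry, fell by 0.30 (adjusted p = 0.0282). The calls for MYLK and CDK4 ended in limma without the trend (0.0602 and 0.0892). That of RAB13 ended without CD104high replicate 1 (0.0736), CD104high replicate 2 (0.0749) or CD104low replicate 2 (0.0571), and that of CDK4 without CD104high replicate 1 (0.0999), CD104high replicate 2 (0.0911) or CD104low replicate 1 (0.0516). RHOA and WNK1 had log2 differences of −0.030 and 0.090 and did not pass.

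Of the 5 lists, relatives, partners and proteases of EPCAM held the most calls, although EPCAM itself did not pass. Of 17 tested, 8 rose, 0 fell and 9 did not pass, with a median of 0.25, and 9 were higher and 1 lower with the replicate block. Of all genes tested 12.1% rose and 11.3% fell, or 17.4% and 15.4% with the block. CD9, a tetraspanin found in complexes with EPCAM, rose 1.54-fold (7920 ± 589 against 5133 ± 131, limma adjusted p = 0.000497). SPINT1 and SPINT2 encode inhibitors of matriptase, a membrane protease that cuts EPCAM. SPINT1 had 243 ± 39.8 against 89.5 ± 29.1 and SPINT2 8630 ± 435 against 5881 ± 665 normalised reads in CD104high and CD104low libraries (limma adjusted p = 0.00291 and 0.00232). ST14, the gene of matriptase, rose with them (196 ± 10.7 against 82.1 ± 22.6, adjusted p = 0.00395) and was singled out after its values were seen. CD44 and APH1A, abundant and not past the threshold, had log2 differences of −0.16 and −0.055.

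Among regulators of junction genes and EPCAM, 2 of 13 tested rose, 0 fell and 11 did not pass (median −0.0076; 3 higher with the block). The 2 higher calls of 13 are near the 12.1% of all genes that rose, and with the block 17.4% of all genes were higher. EHF, an epithelial ETS factor, rose 2.70-fold (898 ± 21.2 against 332 ± 59.8, limma adjusted p = 0.00029). KLF5, an epithelial Krüppel-like factor, rose 1.16-fold (adjusted p = 0.0379), a call that ended without any 1 of the 6 libraries (0.0513 to 0.119) and without the trend (0.0665). The repressor genes ZEB1 and SNAI2 had log2 differences of −0.0076 and 0.15 and did not pass. GRHL2, OVOL1, OVOL2, TWIST1 and TWIST2 had no entry under these symbols in the table and could not be analysed here.

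**Figure D4:**
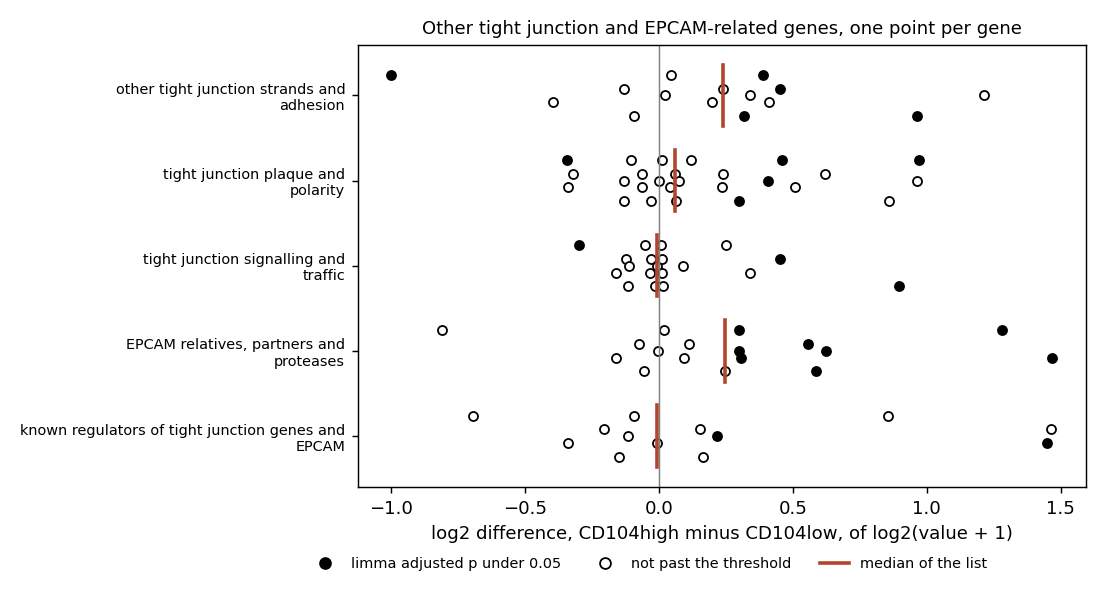
Log2 difference of log2(value + 1), CD104high minus CD104low, for each tested gene of the 5 lists, 1 point a gene, with filled points past an adjusted p of 0.05 in limma and a bar at each list's median. The list of EPCAM relatives, partners and proteases holds 8 higher calls and 0 lower, and the medians of the 5 lists lie between −0.0085 and 0.25.

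The genes whose pattern over the 6 libraries was most like that of EPCAM were TMEM242, CD2AP and C16orf87, with Pearson r of 0.99, 0.98 and 0.97 among 11697 genes with a mean of at least 100. These are descriptions, the highest of 11697 r values, each over 6 libraries that share their depth and scaling, and were not tested. CD2AP, an adaptor between membrane proteins and actin, had 10466, 11484 and 10289 normalised reads in CD104high libraries, against 10840, 10967 and 9940 in CD104low libraries, so it too was lowest in both libraries numbered 3. Among the 9 genes themselves, CLDN7 went most closely with F11R (r = 0.93), with EPCAM next (0.74). These r values pool both groups, and CLDN7 and F11R were both higher in each CD104high library than in any CD104low library.

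Genes listed as markers of other cell types were summed beside these results, and every library came from sorts of a single cell line. KRT8 alone, at 51573 to 64457 normalised reads, lay above VIM, at 20735 to 23439, in every library. The 4 tested genes of luminal breast epithelium (KRT8, KRT18, GATA3 and KRT15, of 5 listed) summed to 79914 to 82832 in CD104high and 66985 to 81582 in CD104low libraries, and none passed the test. The monocyte gene CD14, the single gene used of 4 leukocyte markers, was at 534 to 573 in CD104high and 240 to 263 in CD104low libraries and passed the test (2.21-fold higher, log2 difference 1.14, limma adjusted p = 0.000359). Of the endothelial markers 3 of 4 were used, with PECAM1 under the filter, summing to 73.1 to 142 in CD104high and 94.8 to 128 in CD104low libraries. The 4 fibroblast markers summed to 2517 to 4540 in CD104high and 1305 to 3243 in CD104low libraries, most of it PDGFRB, with PDGFRA and DCN under the filter. Neither of the 2 tested, PDGFRB and LUM, passed, and both passed with the replicate block. Their part in the results above was not tested. In such bulk RNA, fewer cells that express a gene and less RNA per cell cannot be told apart.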

How the data were processed

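The data are total RNA of 6 sorted samples, 3 CD104high and 3 CD104low. Per the submitters' processing notes, the tools were STAR 2.4.0 and FastQC, with featureCounts 1.5.0 and DESeq2 1.30.1, and the build GRCh38.p13. The notes as used here give no roles. The authors deposited 1 table of 15024 genes with values of the unit signal, which are gene read counts divided by 1 size factor per library, beside their log2 fold change, its standard error and a test statistic (both used as a score, per the file headers), and p-values with adjusted p-values. No deposited value is 0, and the strand setting of the counting is not given in the sources used here.

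For these normalised values log2(value + 1) was fitted in R 4.3.3 by limma 3.58.1 with its trend of variance on mean, a scale that understates changes of low genes, with Benjamini-Hochberg adjustment over the 14343 genes that reached 10 in 3 or more libraries and a threshold of 0.05. Folds are ratios of group means. Whole reads were recovered from the size of 1 read in each library for edgeR 4.0.16, DESeq2 1.42.0 and limma-voom as alternatives, and 100% of values came out whole to within 0.1. That size is less certain in CD104high replicate 2, where it (0.993) is close to 1. The test was tried on simulated counts first. Gene spans and exon lengths are from GENCODE 29, matched without the identifier's version.

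Same-numbered libraries deviated together (correlations across genes of 0.166, 0.317 and 0.477 for numbers 1 to 3), which no label states. Pairs across numbers 1 and 2 gave 0.129 and 0.0931, near the value of number 1. Pairs of number 3 with another number gave −0.373 to −0.222. The main tests are unpaired, and the fit with the number as a block is given beside results as an alternative. The labels call the replicates biological, but name no separate cultures. The p-values therefore cover the spread among these libraries, which may be technical. The members, the gene lists and the rule for named genes were chosen with earlier results of these data known. The rule took the 9 genes, ITGB4, up to 4 called genes with the smallest p and 2 uncalled genes with the highest mean of each list, and the 3 genes most correlated with EPCAM. A gene that the rule names, and a within-library comparison that uses it, are not reported here.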

Additional observations from a re-analysis of the deposited data

How the results depend on the processing

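F11R kept its call in all 18 alternatives (log2 difference 0.69 to 0.92). Of the 9 genes, 2 were higher with DESeq2 and with the replicate block (F11R and CLDN7) and in limma without the trend (F11R and CLDN1), and 0 were lower without the trend and at a threshold of 0.01. Leaving out 1 library gave 1 higher and 0 to 1 lower. Among all genes, 936 were lower without the trend, 826 higher and 610 lower at 0.01, 2498 higher and 2208 lower with the block, and 1007 to 1770 higher and 798 to 1544 lower without 1 library. The 5 lists, at 20 higher and 3 lower distinct genes, had 13 and 1 at 0.01, 29 and 6 with the block, and 15 to 22 and 1 to 3 without 1 library.

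Changes of sign concerned genes near 0. Without 1 library the log2 differences ranged from −0.072 to 0.18 for EPCAM, −0.16 to 0.045 for CGN, −0.071 to 0.022 for TJP1, −0.028 to 0.11 for CLDN12, −0.12 to 0.016 for AMOTL2, −0.11 to 0.015 for APH1A, −0.056 to 0.052 for ZEB1, −0.022 to 0.14 for TMEM242, −0.027 to 0.052 for CD2AP and −0.051 to 0.073 for C16orf87. With the same total per library TJP1 had 0.0094 and ZEB1 0.012, and without both libraries numbered 3 TJP1 had 0.017, ZEB1 0.0083 and C16orf87 −0.029. The cause was not tested. Other scalings, pseudocounts and no filter changed no call of the 9 genes, nor did the block besides CLDN7. As sign flips over 3 pairs, the within-library comparisons cannot go below an exact p of 0.25. Levels per principal transcript length were added after seeing the data. The genes with the fewest reads, CLDN1, CLDN3 and OCLN, are the least precise by counting.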

Other observations

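Several junction genes that missed the threshold in the unpaired test passed with the replicate number as a block. Of all genes tested 32.8% were called either way with the block, against 23.4% without it. PARD3B, TJP3, MICALL2 and ARHGEF18, all higher in CD104high, and PARD6A, lower, also passed only with the block. The genes given below are a choice made after their values were seen. PRKCZ, an atypical protein kinase C of the polarity complex, had 527 ± 194 in CD104high and 335 ± 87.4 in CD104low libraries (SD, n = 3 each), with a limma adjusted p of 0.104, and 0.00603 with the block. CXADR, a junctional adhesion protein and virus receptor, had 678 ± 127 and 529 ± 31.5 in CD104high and CD104low libraries (limma adjusted p = 0.113, and 0.0385 with the block). CLDN9 had 41.3 ± 10.9 and 19.1 ± 12.9 (0.0757, and 0.0222 with the block). ESAM, an adhesion protein best known from endothelium, went the other way, with 1385 ± 338 in CD104high and 1853 ± 592 in CD104low libraries (limma adjusted p = 0.26, and 0.00478 with the block).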
